A study of Arabidopsis thaliana with 43 samples.

Results

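Nuclear genes for photosystem subunits and light-harvesting proteins were followed in leaves of Arabidopsis thaliana seedlings (accession Col-0) through a heat acclimation and heat shock regime. The set holds 42 of the 33602 loci in the count tables. It was chosen by gene identity and takes in 6 LHCA genes, 14 LHCB genes, 12 genes for photosystem I subunits (PSAD1 to PSAO) and 10 for photosystem II subunits (PSBO1 to PSBY, and PSBS). All 42 were counted well enough to be tested. About 80 seedlings shared a plate, kept at 22 °C in 16 h days and 8 h nights, and the leaves of 1 whole plate made up each harvest. The plate is the replicate here (n = 2 for every time point, 1 from either batch). Tubes of the same plate are repeats of it, and their counts were summed.

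The 11 time points were T1 to T11, and no group carried a transgene or mutation. T1 was taken at lights on (0 h) of day 12 at 22 °C. The acclimation treatment then raised the temperature over 6 h and held it at 45 °C for 90 min: T2 was taken after 3 h (38 °C), T3 after 6 h (45 °C) and T4 after 7.5 h (45 °C). Acclimated plants back at 22 °C were sampled at 7.5 h of light on day 14 (T5) and day 16 (T6). On day 16, plants were moved straight to 45 °C for 90 min. T7 is acclimated leaves at the end of this shock, 9 h after lights on, and T8 is acclimated leaves on day 18. T9, T10 and T11 are non-acclimated leaves before the shock (day 16, 7.5 h), at its end (9 h) and on day 18. The protocol text assigns T7, T8 and T9 in a way that uses T9 for more than 1 kind of plant, so the roles given here were read from each sample's own labels for time point and temperature.

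Photosystems I and II are the chlorophyll-protein complexes of the thylakoid membrane that turn light into electron flow from water to ferredoxin. Their reaction-centre cores are mostly made from chloroplast genes, whereas the peripheral subunits and the antenna are made from nuclear genes and imported. LHCA proteins form the antenna of photosystem I, LHCB1 to LHCB3 form the trimeric antenna of photosystem II (LHCII), and LHCB4 to LHCB6 link the trimers to the core. These genes are among the most strongly transcribed in green leaves and respond to light, the circadian clock and the state of the chloroplast.

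Gene counts of a library, in units of 1e6, lay between 6.36 and 21.3 (median 9.53). The heat labels were checked with HSP101, a protein disaggregase of the heat response, and HSFA2, a heat stress transcription factor. Levels are given as CPM, a gene's counts relative to the library total, after TMM scaling of that total (trimmed mean of M values, hereafter TMM-CPM), with batch 1 before batch 2 wherever 2 plate values stand together. HSP101 was 5.86 and 7.54 TMM-CPM at T9, 42520 and 44210 at T4, and 5554 and 2689 at T10. The libraries labelled T11, taken at 22 °C on day 18, went against that label: HSP101 was 3601 and 1241 TMM-CPM and HSFA2 was 1623 and 865.9, close to T10 (1899 and 1116 for HSFA2) and far from T9 (0.763 and 1.297). HSP101 at T8, taken on the same day, was 372 and 484 TMM-CPM. Because of the T11 levels, T8 is also compared with T9, with the libraries labelled T11 left out. By the test used below, 3 of 3 heat genes (HSP101, HSFA2 and HSP21, a small heat shock protein) were higher at T8 in that fit. Their median log2 difference from T9 was 6.87, so T8 did not have the heat gene levels of unheated leaves either. Tubes of a plate differed most in batch 2, where the 42 genes took 18.2% and 8.56% of gene counts in the tubes of T6, 4.98% and 11.47% in those of T5 and 16.3% and 22.6% in those of T2. The higher T6 tube stood apart from the other 3 tubes of T6 in its shares for LHCB and PSB genes. Leaf mesophyll markers were high throughout (5145 to 133100 TMM-CPM summed over 5 genes). Root markers summed to 2.32 to 58.1 TMM-CPM over 6 genes and shoot apex markers to 2.53 to 30.3 over 4 genes, of which WUS and CLV3 were too low to test. Guard cell and vascular markers summed to 51.2 to 320 TMM-CPM over 4 genes.

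Several members are near-identical copies, and for these the counts are uncertain. The LHCB1 genes encode the most abundant LHCII protein and lie in 2 clusters, LHCB1.1 (AT1G29920), LHCB1.2 (AT1G29910) and LHCB1.3 (AT1G29930) at chr1:10472280-10479114 and LHCB1.4 (AT2G34430) and LHCB1.5 (AT2G34420) at chr2:14522524-14525918 (RefSeq annotation of TAIR10.1, as for all positions and sequences here). Over the 804 bases of the coding sequence, LHCB1.2 was 95.6% and LHCB1.3 was 96.1% identical to LHCB1.1. The last 90 coding bases are shown because they let a reader see how few bases tell these copies apart. Capitals mark bases that differ from LHCB1.1.
LHCB1.1: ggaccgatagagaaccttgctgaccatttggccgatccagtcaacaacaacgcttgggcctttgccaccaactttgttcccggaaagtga
LHCB1.2: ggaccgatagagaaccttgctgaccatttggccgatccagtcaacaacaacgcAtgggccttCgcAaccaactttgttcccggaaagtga
LHCB1.3: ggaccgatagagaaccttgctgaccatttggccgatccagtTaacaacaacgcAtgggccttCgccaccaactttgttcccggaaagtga
LHCB1.4: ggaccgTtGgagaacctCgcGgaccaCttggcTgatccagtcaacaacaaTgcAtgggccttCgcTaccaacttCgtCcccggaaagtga
LHCB1.5: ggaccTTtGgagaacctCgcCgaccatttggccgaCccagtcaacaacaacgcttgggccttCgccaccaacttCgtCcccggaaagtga
In this stretch LHCB1.2 and LHCB1.3 each differ from LHCB1.1 at 3 bases, LHCB1.5 at 9 and LHCB1.4 at 12. Of all 50-base words of the exons, 10.6% to 20.5% of those of the 5 LHCB1 genes occur elsewhere in the genome, as do 23.5% of those of LHCB2.1, 29.5% of those of LHCB2.2 and 11.4% of those of LHCA2. The other 34 members had no such word. Records aligned to more than 1 place, which were left out of the gene counts, were 3.75% to 24.2% of records in batch 1 and 13.3% to 44.2% in batch 2. Its part in differences between batches for the 8 genes with shared words was not tested.

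The 250 bases before the annotated gene start are shown for 4 members whose patterns the results below turn on. LHCB2.3 (AT3G27690, an LHCII antenna gene) had the lowest T8 level relative to T11, LHCB1.5 the highest T4 level relative to T1, and LHCA5 (AT1G45474) and PSBS (AT1G44575) were not called at T4 against T9. Capitals mark the G-box CACGTG (bound by bZIP and bHLH factors), CCAATC (a sequence linked to the GLK factors) and the evening element AAAATATCT (a clock element).
LHCB2.3, chr3:10255656-10255905, plus strand: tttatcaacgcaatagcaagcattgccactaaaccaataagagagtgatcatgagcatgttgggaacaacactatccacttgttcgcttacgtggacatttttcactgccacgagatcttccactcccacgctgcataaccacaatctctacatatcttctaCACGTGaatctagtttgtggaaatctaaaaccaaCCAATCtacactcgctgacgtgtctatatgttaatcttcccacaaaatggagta
LHCB1.5, chr2:14523569-14523818, minus strand: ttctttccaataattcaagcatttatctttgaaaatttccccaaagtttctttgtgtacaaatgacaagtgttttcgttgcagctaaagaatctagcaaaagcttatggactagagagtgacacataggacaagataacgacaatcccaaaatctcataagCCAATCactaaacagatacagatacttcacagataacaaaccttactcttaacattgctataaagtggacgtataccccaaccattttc
LHCA5, chr1:17179000-17179249, plus strand: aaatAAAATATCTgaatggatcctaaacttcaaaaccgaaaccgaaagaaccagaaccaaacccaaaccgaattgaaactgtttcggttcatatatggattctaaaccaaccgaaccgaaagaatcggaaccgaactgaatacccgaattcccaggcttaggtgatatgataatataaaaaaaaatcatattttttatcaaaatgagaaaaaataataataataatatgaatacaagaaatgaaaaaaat
PSBS, chr1:16869971-16870220, plus strand: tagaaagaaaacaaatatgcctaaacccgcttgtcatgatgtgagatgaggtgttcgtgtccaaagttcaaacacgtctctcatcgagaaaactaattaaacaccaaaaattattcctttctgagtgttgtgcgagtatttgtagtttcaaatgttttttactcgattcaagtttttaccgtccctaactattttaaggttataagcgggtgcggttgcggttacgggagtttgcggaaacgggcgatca
Both strands of such windows were searched for all members and for all 27443 protein-coding genes. CACGTG was in 8 of 42 members (19.0%) and 6.49% of all genes, GATAAG (the I-box of light-regulated genes) in 9 (21.4%) and 12.3%, and CCAATC in 11 (26.2%) and 10.2%. By family, CCAATC was in 7 of 14 LHCB windows and in none of 12 PSA windows. The evening element was in 1 member (2.38%) and 2.36% of all genes, and AAAAATCT (bound by the clock factor CCA1) in 5 (11.9%) and 6.69%. GAANNTTC, the core of heat shock elements, was in 1 member, LHCB5 (2.38%), and 9.55% of all genes, and TATAAA was in 19 (45.2%) and 47.3%. These are matches of letters in a window of 250 bases and do not show binding.

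In unheated leaves at T9, levels per kb of exon spanned more than 3 orders of magnitude among members. LHCB1.3 was highest, with 11140 TMM-CPM per kb (10910 and 11370 in the plates), and its plates did not overlap those of LHCB1.5 (6622 and 5352). LHCB1.2 (3782 and 5496), LHCB1.1 (4384 and 4250) and LHCA4 (3807 and 3941) followed. The plates of LHCB1.2 overlapped those of LHCB1.5 and of LHCB1.1, whereas those of LHCB1.1 and LHCA4 did not overlap. PSBR, a small subunit on the lumen side of photosystem II, was the highest photosystem subunit with 3621 TMM-CPM per kb (3931 and 3311), overlapping LHCA4. At the other end, LHCB2.3 averaged 413 TMM-CPM per kb, LHCA5 134, LHCA6 81.6 and LHCB4.3, a form of the linker CP29, 9.64. LHCA5 and LHCA6 are minor photosystem I antenna proteins that attach the NDH complex. The members together held 12.1% and 14.6% of all gene counts at T9, and 32 and 36 of them were among the 100 most counted loci of the plate.

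Across the regime this share was lowest at T8. Without TMM scaling, as a percentage of all gene counts, the members held 8.86% and 12.2% at T1, 13.8% and 19.0% at T2, 16.3% and 12.8% at T3, and 19.9% and 17.3% at T4. The share was 9.03% and 6.94% at T5, 6.63% and 12.7% at T6, 10.55% and 16.0% at T7, and 17.1% and 21.1% at T10. It was 12.7% and 15.2% in the libraries labelled T11. At T8 it was 1.38% and 4.21%, below every other plate. The tubes of the T8 plates gave 1.41% and 1.35% in batch 1 and 4.14% and 4.27% in batch 2, so tubes of a plate differed far less than the batches did. On the TMM-CPM scale the lowest of all 22 plates was a T8 plate for each of the 42 members, and for 40 of them it was the T8 plate of batch 1. Both T8 plates lay below all 20 others for 31 members, as they did for 4.26% of all loci tested. The highest plate was at T4 for 38 members, at T10 for 2, at T3 for PSBS and at T7 for LHCB4.3.

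**Figure D1:**
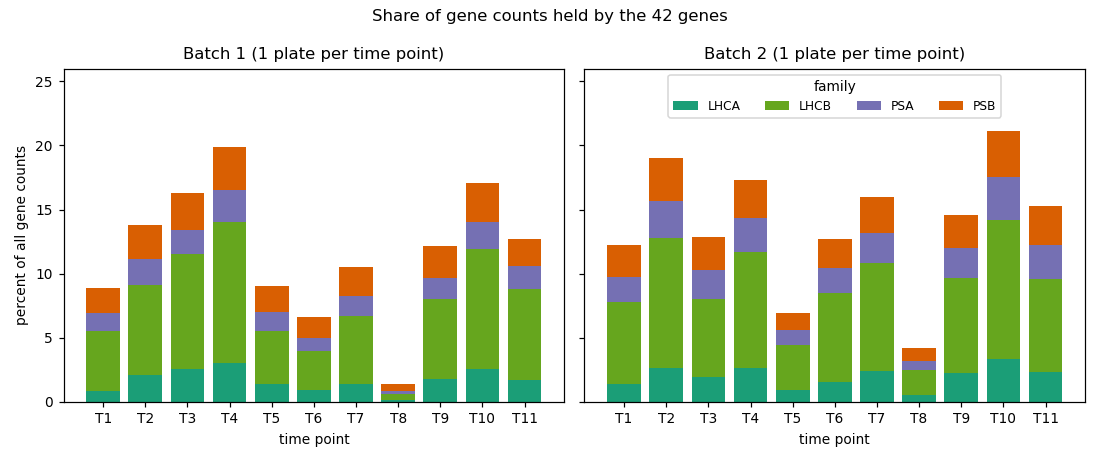
Percentage of all gene counts (vertical axis) held by the members of each family (stacked bars) at T1 to T11 (horizontal axis), in the plates of batch 1 (left) and batch 2 (right). The T8 plates, at 1.38% and 4.21% for all families together, are the lowest in each batch.

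**Figure D2:**
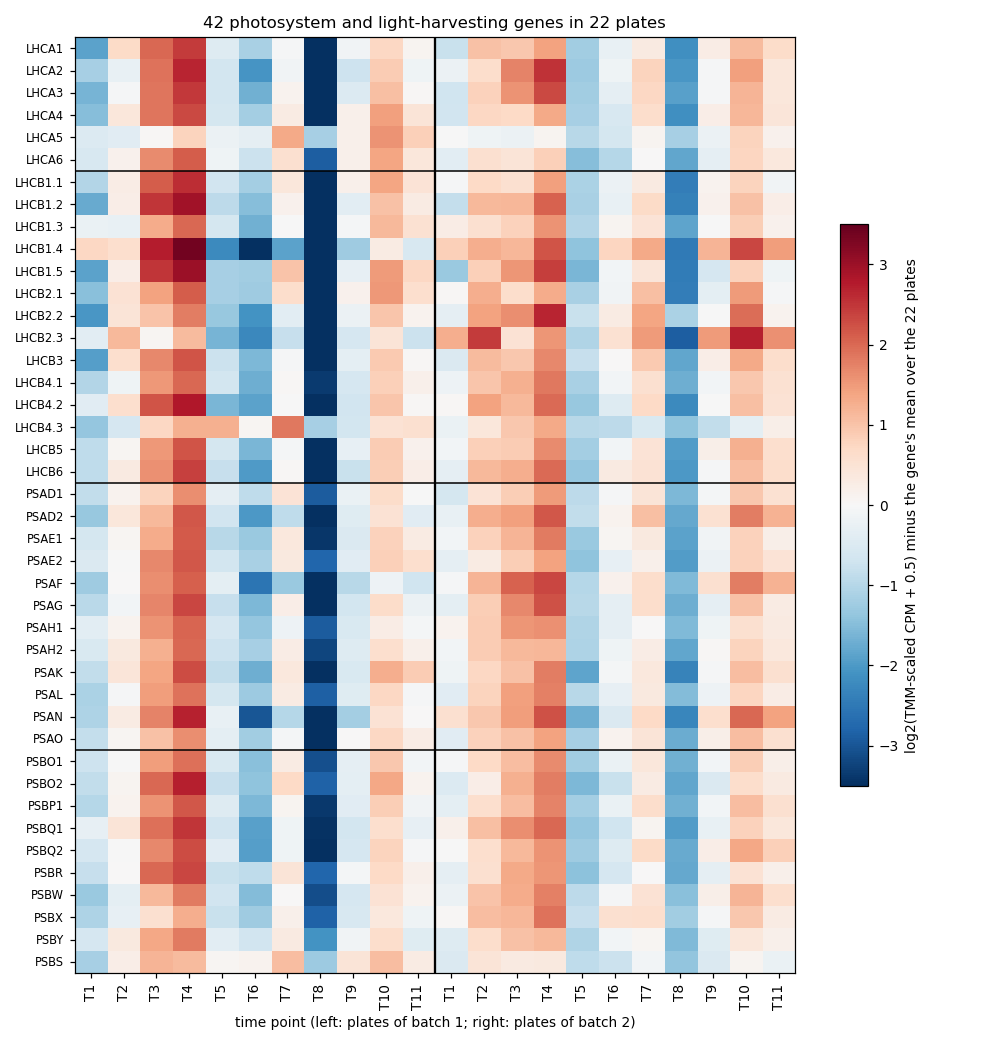
Level of each of the 42 members (rows, by family) in each of the 22 plates (columns, T1 to T11 of batch 1 at left and of batch 2 at right), as log2(TMM-CPM + 0.5) minus the gene's mean over the plates; colours saturate at 3.5 in either direction. The T4 columns are the highest for most members and the T8 columns the lowest.

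Unheated leaves of day 16 at 7.5 h of light (T9) were compared with unheated leaves of day 12 at lights on (T1), a comparison of hour and age. No member passed the test (edgeR's quasi-likelihood test, Benjamini-Hochberg adjusted p under 0.05 over 20980 loci, used throughout), against 1.92% of all loci in either direction. DESeq2 also called 0 members, and 1 had an unadjusted p under 0.05. The members' median log2 difference was 0.27, beside -0.02 over all loci. LHCA1, which pairs with LHCA4 in the photosystem I antenna, had the largest, 1.34 (adjusted p = 0.446).

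After 3 h of slow warming to 38 °C (T2), 41 of 42 members had a fitted level above T1, but none passed the test. Their median log2 difference was 1.03, or 2.05-fold, beside -0.03 over all loci, of which 2.75% were called in either direction. The median was 0.57 with library size scaling and 0.15 in the authors' deposited log2 values. Unadjusted p was under 0.05 for 15 members. DESeq2 called 6 members higher, with 3.68% of its loci called higher. LHCB1.5 was 2299 and 3428 TMM-CPM at T1, and 9756 and 14970 at T2. LHCA1 was 1069 and 2299 at T1, and 6193 and 7954 at T2. For both genes the T2 plates lay above the T1 plates, yet the log2 differences of 2.11 ± 0.71 (SE, adjusted p = 0.158) and 2.1 ± 0.63 (adjusted p = 0.106) did not pass. T1 was taken at lights on and T2 after 3 h of light, so warming and the hour cannot be told apart here.

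In the second part of the ramp, from 38 to 45 °C, 11.8% of all loci were called higher at T3 than at T2. By edgeR the share was smaller among members, of which 2 of 42 were called higher. They were PSBO2, a form of the PsbO protein that stabilises the water-splitting manganese cluster (log2 difference 1.5 ± 0.50, adjusted p = 0.0382), and PSBR (1.39 ± 0.49, adjusted p = 0.0499). PSBO2 was 1933 and 2132 TMM-CPM at T2 and 7337 and 4331 at T3. The median over members was 0.87, with 1.47 in batch 1 and 0.28 in batch 2, and 11 members had an unadjusted p under 0.05. DESeq2 called 10 of 42 members higher and 3391 of 20980 loci, so by that tool the share was larger among members. Without T2 of either batch or T3 of batch 1 no member was called, and without T3 of batch 2 the count was 1. The median was -0.24 with library size scaling and -0.58 in the authors' deposited values. Leaf mesophyll markers summed to 94940 and 72520 TMM-CPM at T3 against 39760 and 53320 at T2, with a median of 1.07 and 0 of 5 called. Of guard cell and vascular markers APL was called higher (0.81) and FAMA lower (-1.64), with sums of 128 and 57.4 against 120 and 73.8. IRT1 was called lower among 6 root markers (sums of 5.66 and 13.35 against 9.46 and 12.25) and KNAT1 among 2 shoot apex markers tested (sums of 4.78 and 6.76 against 14.85 and 15.1). The part of these cell types was not tested, and temperature and the hour cannot be told apart. LHCB2.3 stood at the other end, with a log2 difference of -1.38 that did not pass (adjusted p = 0.109).

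At the end of the acclimation treatment (T4), counted on the TMM scale, 39 of 42 members were higher than in unheated leaves of the same hour (T9) and none was lower. In all loci, 18.7% were higher and 24.2% lower. The median member was 4.49-fold higher (log2 2.17, with 2.54 in batch 1 and 1.70 in batch 2), while the median locus was at -0.30. Family medians were close, at 1.86 for LHCA, 2.18 for LHCB, 2.23 for PSA and 2.104 for PSB. T4 plates lay above T9 plates for 39 members, as they did for 28.8% of loci. Against T1 the count was 38 of 42, with 18.8% of loci called higher. The median was 2.54 there, 0.68 with library size scaling and -0.33 in the authors' deposited values. Leaf mesophyll markers moved with the members (sums of 133100 and 96340 TMM-CPM at T4 against 29690 and 22600 at T9), and 4 of 5 were called higher. Root markers summed to 7.10 and 9.12 TMM-CPM at T4 against 23.0 and 16.8 at T9, and 1 of 6 was called lower, the iron transporter IRT1. At these low levels the fitted median log2 difference of -4.84 lay outside the batch medians of -4.05 and -2.80. Guard cell and vascular markers summed to 203 and 78.4 against 216 and 125, with APL called higher (1.64) and FAMA lower (-2.50). Shoot apex markers summed to 5.68 and 2.53 against 11.2 and 11.46, with 0 of 2 tested called. The part of these cell types in the result was not tested. T4 was taken on day 12 and T9 on day 16, so age and the heating cannot be told apart. T1 was taken at lights on and T4 after 7.5 h of light, so against T1 the heating and the hour cannot be told apart.

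Among the photosystem I antenna genes, LHCA2 differed most between T4 and T9 and LHCA5 least. LHCA2 was 20240 and 18260 TMM-CPM at T4 against 1940 and 3082 at T9. Its T4 plates lay far above the T9 plates, and it rose by 3.03 ± 0.64 on the log2 scale (adjusted p = 0.00186). LHCA5 was 244 and 153 TMM-CPM at T4 against 162 and 125 at T9. The plates overlapped, and the log2 difference of 0.45 ± 0.35 did not pass (adjusted p = 0.309). In the LHCB family, LHCB1.4 was 12890 and 5712 TMM-CPM at T4 against 528 and 2842 at T9. Its plates did not overlap, but the log2 difference was 4.61 in batch 1 and 1.01 in batch 2, and the fit gave 3.33 ± 1.28 (adjusted p = 0.0479). LHCB2.3 was 754 and 1015 TMM-CPM at T4 against 230 and 980 at T9. These plates overlapped, since T9 of batch 2 was above T4 of batch 1, and the log2 difference of 1.03 ± 0.62 did not pass (adjusted p = 0.190).

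Of the photosystem I subunits, PSAN, on the lumen side where plastocyanin docks, was 3772 and 2710 TMM-CPM at T4 against 254 and 864 at T9. Its plates were well apart, with a log2 rise of 2.91 ± 0.80 (adjusted p = 0.00909). PSAO, which takes part in docking LHCII at photosystem I, had the smallest rise of the PSA genes, 1.44 ± 0.52 (adjusted p = 0.0374), from 1907 and 2192 TMM-CPM at T9 to 5860 and 5053 at T4. The T4 plates of PSAO were again both above the T9 plates. For photosystem II, PSBQ1, an extrinsic subunit of the oxygen-evolving complex, rose by 2.77 ± 0.51 (adjusted p = 0.000713), from 619 and 809 TMM-CPM to 5477 and 3903. PSBS, the lumen pH sensor that switches on heat dissipation of excess light, was 3706 and 2186 TMM-CPM at T4 against 2337 and 1224 at T9. Those plates overlapped, and its log2 difference of 0.74 ± 0.45 did not pass (adjusted p = 0.191).

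The direction at T4 depended on how libraries were scaled. TMM factors were 0.361 and 0.448 at T4 and 0.438 and 0.529 at T3, against 0.785 to 1.64 at all other time points, so the scaling raised T3 and T4 levels more than any other. With library sizes as the only scaling, 5 members were higher and 2 lower at T4 than at T9 with a median of 0.40, while the median locus was at -2.02, 3.38% of loci were higher and 74.8% lower. In the authors' deposited log2 values, 0 of 42 members were higher and 3 lower, where 3336 of 18864 loci were higher and 3538 lower. Both shares were thus smaller among members than over all loci. The members' median in these values was -0.45 beside -0.05 over all loci. All 43 columns used of these values share the same highest value (13.908). What this does to the most strongly counted genes was not tested. The members' median less the median of all loci was 2.42 to 2.46 over the 4 count scalings, and -0.40 in the authors' values. By rank of counts within a plate, the median member stood at 63 and 61 at T4 and at 42.5 and 29.5 at T9, and 32 and 31 members were among the 100 most counted loci at T4. Thus members took a somewhat larger share of counts at T4 than at T9 (19.9% and 17.3% against 12.1% and 14.6%) without a higher rank. The members' median on the TMM scale was 1.696 without T4 of batch 1 and 2.544 without T4 of batch 2. It was 2.206 without T9 of batch 1 and 2.102 without T9 of batch 2. Fewer members were called higher in each of these fits, as were fewer of all loci. These are bulk leaf samples, in which fewer cells of a type and less RNA per cell cannot be told apart.

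**Figure D3:**
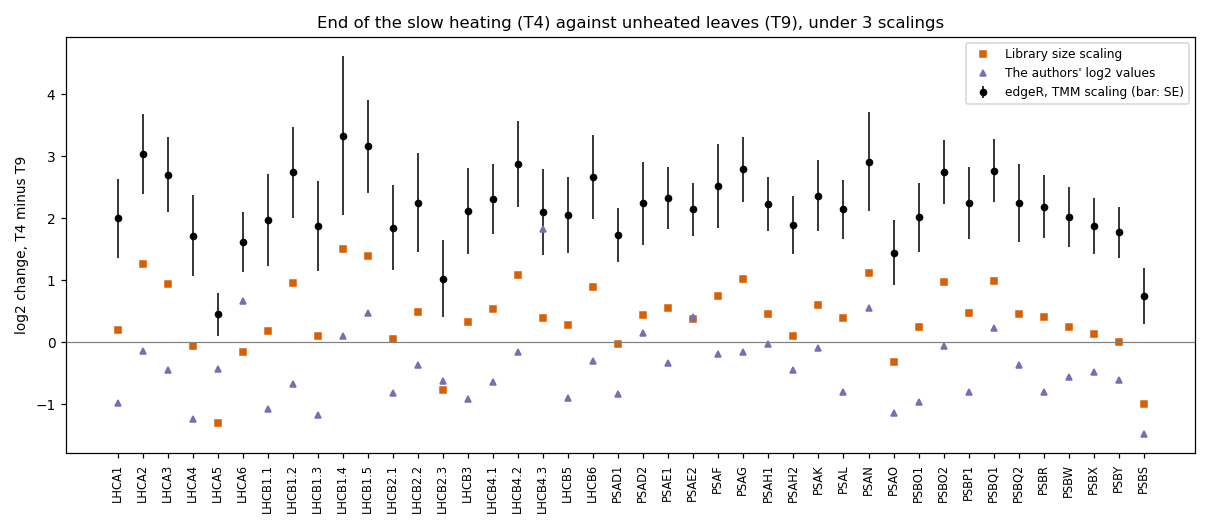
Log2 difference between T4 and T9 (vertical axis) for each of the 42 members (horizontal axis) with TMM scaling (circles, bars are SE), with library sizes only (squares) and in the authors' deposited log2 values (triangles). The medians over members are 2.17, 0.40 and -0.45.

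After acclimated plants had returned to 22 °C, no member passed the test against never-heated leaves. At T5 the median log2 difference from T9 was -0.67, and 41 members had fitted levels below T9, but 0 members passed by edgeR or DESeq2 and 1 had an unadjusted p under 0.05, with 0.443% of loci called. LHCB2.3 had the smallest adjusted p (0.322), at -1.69. T5 was taken on day 14 and T9 on day 16, so acclimation and age cannot be told apart there. At T6, on the same day and hour as T9, the median was -0.59, 0 members passed by either tool, 0 had an unadjusted p under 0.05, and 0.0191% of loci were called. LHCB2.3 was 72.0 and 503 TMM-CPM at T6 against 230 and 980 at T9, plates that overlapped. Without the tube of T6 that stood apart, the T6 median was -1.002 and again no member passed, an alternative chosen after seeing the data.

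At the end of the sudden shock of non-acclimated leaves (T10 against T9) 1 member had risen, LHCA5, while all 42 had fitted levels above T9. Of all loci, 3.76% were called higher, a larger share than 1 of 42 members. LHCA5 was 162 and 125 TMM-CPM at T9 and 428 and 246.5 at T10, so the plates did not overlap. It rose by 1.21 ± 0.35 (adjusted p = 0.0485). The call did not hold without any single plate of the comparison. The members' median was 1.14 (2.20-fold) beside -0.04 over all loci on the TMM scale, 0.48 beside -0.69 with library size scaling, and 0.11 beside -0.01 in the authors' deposited values. Leaf mesophyll markers had a median of 1.08, with 0 of 5 called, and no root, shoot apex, guard cell or vascular marker was called; their part was not tested. Unadjusted p was under 0.05 for 18 members, and DESeq2 called 9 higher, with 7.82% of its loci. T10 plates lay above T9 plates for 36 members and for 24.5% of all loci. T10 was taken at 9 h of light and T9 at 7.5 h, so the shock and the hour cannot be told apart.

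The range of these differences was narrow. LHCA2 had the largest log2 difference of the LHCA genes (1.54 ± 0.61, adjusted p = 0.117), with 5882 and 8549 TMM-CPM at T10 against 1940 and 3082 at T9. LHCA1 had the smallest (0.85 ± 0.61, adjusted p = 0.393), with 6527 and 8440 against 3624 and 4707. In both genes the T10 plates were above the T9 plates. LHCB1.5 was 23580 and 14790 TMM-CPM at T10 and 6920 and 5593 at T9, a difference of 1.61 ± 0.70 (adjusted p = 0.154). LHCB4.3, far lower at 33.95 and 18.6 TMM-CPM against 15.0 and 12.95, differed by 0.86 ± 0.67 (adjusted p = 0.430). Neither pair of groups overlapped. PSAN reached 825 and 2324 TMM-CPM from 254 and 864, 1.53 ± 0.75 (adjusted p = 0.199), with overlapping plates. PSAH1, a subunit at the LHCII docking site, reached 978 and 1213 from 564 and 734, 0.76 ± 0.42 (adjusted p = 0.257), without overlap. PSBO2 was at 4624 and 2780 after 1431 and 1280, 1.44 ± 0.50 (adjusted p = 0.0811), also without overlap. PSBS was at 3651 and 1845 after 2337 and 1224, 0.62 ± 0.45 (adjusted p = 0.390), and its plates overlapped.

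In acclimated leaves at the end of the same shock (T7 against T6), LHCA5 was again higher and no other member passed, where 4.46% of loci were called higher. T7 was taken at 9 h of light and T6 at 7.5 h, so here too the shock and the hour cannot be told apart. LHCA5 went from 115 and 92.8 TMM-CPM at T6 to 358 and 153 at T7, without overlap, a rise of 1.24 ± 0.35 (adjusted p = 0.0448). The median member was at 1.09 (1.64 in batch 1 and 0.64 in batch 2), 12 had an unadjusted p under 0.05, and DESeq2 called 6 higher with 8.66% of its loci. Without the tube of T6 that stood apart, 10 members were higher and the median was 1.45. Over all loci, 1347 of 21016 were then called higher, in place of 936 of 20980. The call of LHCA5 was lost without T6 of either batch or T7 of batch 1. T7 plates lay above T6 plates for 29 members and for 23% of loci. The median was 0.50 with library size scaling. In the authors' deposited values it was -0.02 and no member was called. Leaf mesophyll markers had a median of 1.22, with 0 of 5 called, and their part was not tested.

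At the end of the shock, no member passed the test between acclimated and non-acclimated leaves. For T7 against T10, 41 members had fitted levels below T10, with a median of -0.68, but 0 passed by edgeR or DESeq2, 0 had an unadjusted p under 0.05, and 0.0572% of loci were called. A fit to the plates of T7 and T10 alone called 18 members lower. Over all loci, that fit called 758 of 18947 lower and 993 higher. The interaction that asks whether the shock response itself differed with acclimation called 0 of 42 members and 0 of all loci (0%) by edgeR and by DESeq2, with 0 members at an unadjusted p under 0.05 and a median of -0.04. T4, after slow heating to 45 °C on day 12 (7.5 h of light), was compared with T10, after sudden heating on day 16 (9 h). The kind of heating, age and hour cannot be told apart here. In this comparison 4 of 42 members were higher at T4. They were PSBQ1 (1.62 ± 0.49, adjusted p = 0.0226), PSAG, a photosystem I subunit beside the antenna (1.48 ± 0.51, adjusted p = 0.0401), PSAH1 (1.47 ± 0.43, adjusted p = 0.0192) and PSBR (1.38 ± 0.49, adjusted p = 0.0480). Of all loci, 12.1% were called higher, a larger share than that of the members. The median was 1.02, 17 members had an unadjusted p under 0.05, and DESeq2 called 18 with 16.1% of its loci. With library size scaling the median was -0.10, no member was called higher and 2 were called lower. None was called higher without T10 of either batch or without T4 of batch 1. Mesophyll markers summed to 133100 and 96340 TMM-CPM at T4 against 50320 and 35190 at T10, and 2 of 5 were called higher, with a median of 1.43. Root markers summed to 7.10 and 9.12 against 58.1 and 9.58, and 2 of 6 were called lower. Their fitted median of -4.12 lay outside the batch medians of -2.71 and -2.75. Guard cell and vascular markers summed to 203 and 78.4 against 233 and 74.5, with APL called higher (1.69) and FAMA lower (-1.43). Shoot apex markers summed to 5.68 and 2.53 against 5.92 and 7.02, with 0 of 2 tested called. The part of these cell types was not tested.

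In non-acclimated leaves labelled as 2 days after the shock (T11), no member passed the test against T9. The median was 0.46, 0 members passed by edgeR or DESeq2 and 0 had an unadjusted p under 0.05, while 6.69% of all loci were called in either direction. In the authors' deposited values the median was -0.16. T11 was taken on day 18 and T9 on day 16, so the shock and age cannot be told apart. LHCA5 had the largest difference of the LHCA genes (0.51 ± 0.35, adjusted p = 0.356) and LHCA4 the smallest (0.24 ± 0.64, adjusted p = 0.840). LHCA5 was 257 and 159 TMM-CPM at T11 and LHCA4 was 5937 and 5925, against 162 and 125 and against 4930 and 5103 at T9. The plates of LHCA5 overlapped and those of LHCA4 did not, though by little. LHCB4.3, at 35.2 and 27.3 TMM-CPM against 15.0 and 12.95, had a difference of 1.15 ± 0.68 (adjusted p = 0.283), and LHCB2.3, at 207 and 1058 against 230 and 980, one of 0.00 ± 0.60. PSAK, a photosystem I subunit beside the antenna, was 1959 and 1580 TMM-CPM against 741 and 1036 (1.02 ± 0.55, adjusted p = 0.247). PSAO was 2288 and 2808 against 1907 and 2192 (0.31 ± 0.51, adjusted p = 0.732). For both subunits the T11 plates were above the T9 plates. PSBO2 was 1994 and 2252 TMM-CPM against 1431 and 1280 (0.66 ± 0.49, adjusted p = 0.402), without overlap. PSBS was 2113 and 1455 against 2337 and 1224 (0.04 ± 0.45, adjusted p = 0.964), with its plates interleaved.

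Acclimated leaves 2 days after the shock (T8) had far lower levels of almost every member. Against the libraries labelled T11, 41 of 42 members were lower and none higher, where 13.4% of all loci were called lower. The median member was 7.29-fold lower (log2 -2.87, with -3.72 in batch 1 and -2.29 in batch 2), and the median locus was at 0.01. By family, medians were -2.998 for LHCA, -3.30 for LHCB, -2.82 for PSA and -2.41 for PSB. Both T8 plates lay below the T11 plates for 42 members and 29.2% of loci. Only LHCB4.3 did not pass. Since the heat genes of the T11 libraries went against their label, T8 was also compared with T9, with the T11 plates left out of the fit, a choice made after seeing the data. There 39 of 42 members were lower, with a median of -2.41 beside 0.03 over all loci and 9.55% of loci called lower. PSBS (-1.29, adjusted p = 0.0760), LHCB1.4 (-4.10, adjusted p = 0.0501) and LHCB4.3 (-0.54, adjusted p = 0.643) did not pass. T8 was taken on day 18 and T9, never heated, on day 16, so age and the heating cannot be told apart. The heat genes HSP101, HSFA2 and HSP21 were also higher at T8 than at T9, with a median log2 difference of 6.87.

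LHCB2.3 fell most. It was 4.71 and 46.4 TMM-CPM at T8, 207 and 1058 at T11 and 230 and 980 at T9. Both T8 plates were thus far below the rest, and LHCB2.3 was lower by 28.1-fold against T11 (log2 -4.81 ± 0.71, adjusted p = 0.000833) and by 27.7-fold against T9 (-4.79 ± 0.72, adjusted p = 0.00141). LHCB4.3 was 10.48 and 8.69 TMM-CPM at T8 and 35.2 and 27.3 at T11, groups that did not overlap, with a log2 difference of -1.70 ± 0.69 (adjusted p = 0.0781). In the LHCA family, LHCA4 was 227 and 992 TMM-CPM at T8 against 5937 and 5925 at T11, well below in each batch (-3.32 ± 0.70, adjusted p = 0.00439), and against T9 the difference was -3.07 ± 0.73 (adjusted p = 0.0129). LHCA5 was 63.4 and 63.5 TMM-CPM at T8 against 257 and 159 (-1.66 ± 0.36, adjusted p = 0.00463), and -1.14 ± 0.36 against T9 (adjusted p = 0.0430). Its T8 plates agreed closely with each other and were the lowest of all its plates.

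Against T11, PSAN had the largest loss of the photosystem I subunits, with 31.8 and 118 TMM-CPM at T8 against 586 and 1544 at T11 (log2 -3.90 ± 0.82, adjusted p = 0.00430). PSAL, which forms the docking surface for LHCII with PSAH and PSAO, had the smallest, with 445 and 1132 TMM-CPM at T8 against 3141 and 3814 (-2.20 ± 0.48, adjusted p = 0.00496). In both genes the T8 plates were well below. Against T9 the differences were -2.90 ± 0.81 for PSAN (adjusted p = 0.0260) and -1.79 ± 0.50 for PSAL (adjusted p = 0.0261). The largest loss of a photosystem I subunit there was that of PSAD2, a stromal subunit where ferredoxin docks (-3.16 ± 0.72, adjusted p = 0.0107). Of the photosystem II subunits, PSBQ2, an extrinsic subunit of the oxygen-evolving complex, was 80.6 and 373 TMM-CPM at T8 against 1229 and 2231 at T11 (-3.03 ± 0.65, adjusted p = 0.00467), and -2.43 ± 0.66 against T9 (adjusted p = 0.0231). PSBS lost least, with 713 and 657 TMM-CPM at T8 against 2113 and 1455 (-1.34 ± 0.45, adjusted p = 0.0407), and its T8 plates too were below both T11 plates.

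The T8 result leaned on the T8 plate of batch 1. Without that plate the members' median against T11 was -2.29, and fewer members were called lower, as were fewer of all loci. A fit to the T8 and T11 plates alone called 0 members and 0 loci of any kind. With no replicate block in the fit 36 members were lower, where 1815 of 20980 loci were lower. Under library size scaling 40 were lower, where 1228 of 20980 loci were. In the authors' deposited values 40 were lower with a median of -2.50, where 3079 of 18864 loci were lower. At T8 the median member ranked 609.5 and 113 by counts, against 55 and 30.5 at T11, and 3 and 19 members were among the 100 most counted loci against 27 and 38. Leaf mesophyll markers, which are genes of carbon fixation in the same cells, moved with the members: all 5 fell against T11, with sums of 5145 and 9250 TMM-CPM at T8 against 24850 and 26610. Shoot apex markers summed to 13.5 and 30.3 TMM-CPM at T8 against 18.2 and 23.1 at T11, root markers to 3.78 and 2.32 against 6.55 and 8.97, and guard cell and vascular markers to 123 and 83.1 against 87.6 and 51.2. No gene of these 3 lists passed the test between T8 and T11. Against T9, without the T11 plates, 3 of 5 mesophyll and 3 of 6 root markers were lower. Their part in the result was not tested.

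**Figure D4:**
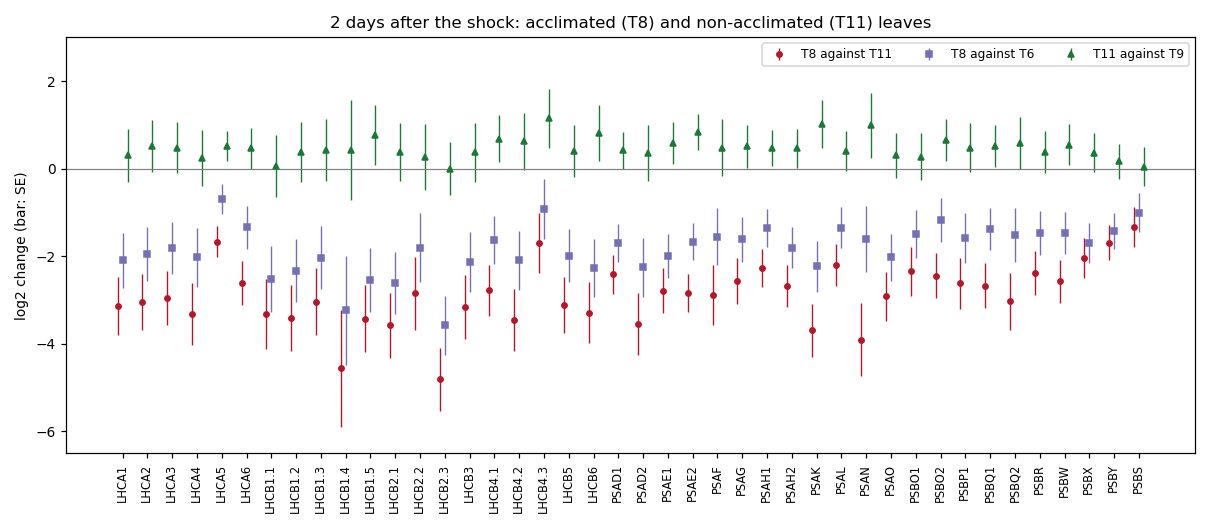
Log2 difference of each member (horizontal axis) between T8 and T11 (circles), T8 and T6 (squares) and T11 and T9 (triangles) from the fit to all 22 plates, with SE as bars. T8 lies below T11 for 42 members (median -2.87) and below T6 (median -1.75), and T11 lies near T9 (median 0.46).

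Compared with acclimated leaves just before the shock (T6), 9 of 42 members had fallen at T8, where 3.27% of loci were called lower. They were LHCB2.1, LHCB2.3, PSAD1, PSAE1, PSAE2, PSAH2, PSAK, PSAO and PSBX. T6 was taken on day 16 and T8 on day 18, so the shock and age cannot be told apart. LHCB2.3 had the largest loss (log2 -3.58 ± 0.67, adjusted p = 0.0100), and PSAK, with 75.6 and 209 TMM-CPM at T8 against 325.5 and 1018 at T6, fell by 2.23 ± 0.57 (adjusted p = 0.0401). PSAD1, PSAE1 and PSAE2 encode the stromal subunits where ferredoxin docks, and fell by 1.70 ± 0.43, 1.99 ± 0.49 and 1.66 ± 0.42. The median was -1.75 with all 42 fitted levels below T6, 39 members had an unadjusted p under 0.05, and DESeq2 called 33 with 6.02% of its loci. T8 plates lay below T6 plates for 33 members and for 24% of loci. The count was 1 without the tube of T6 batch 2 that stood apart, 7 without the T11 plates, 20 without T8 of batch 2, and 0 without T8 of batch 1 or without T6 of batch 2. With no replicate block in the fit it was 0. Root markers summed to 3.78 and 2.32 TMM-CPM at T8 against 22.2 and 40.9 at T6, and 3 of 6 were called lower, with a median of -3.67. Mesophyll markers summed to 5145 and 9250 TMM-CPM against 16970 and 23860, with a median of -1.35, 0 of 5 called and 4 at an unadjusted p under 0.05. Guard cell and vascular markers summed to 123 and 83.1 against 185.6 and 127.4, shoot apex markers to 13.5 and 30.3 against 12.1 and 13.65, and none of either list was called. The part of these cell types was not tested.

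Whether the change from before the shock to 2 days after it differed with acclimation was asked of each member by an interaction. No member passed by edgeR, where 1.46% of loci were called in either direction, but 40 of 42 had an unadjusted p under 0.05 and DESeq2 called 31 lower, with 4.49% of its loci. The median interaction was -2.28, with -2.62 in batch 1 and -2.12 in batch 2. PSAE2 had the smallest adjusted p (-2.49 ± 0.59, adjusted p = 0.0509), and LHCB2.3 followed at -3.58 ± 0.88 (adjusted p = 0.0568). With 1 plate left out, the median interaction lay between -3.19 (without T8 of batch 2) and -1.675 (without T6 of batch 2). Without T8 of batch 1 it was -1.75. The interaction uses the libraries labelled T11, and no form of it without them was fitted.

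Proportions within pairs of related members varied with time point for some pairs and less for others. LHCB2.2 made up 60.7% and 61.9% of the summed LHCB2.2 and LHCB2.3 level at T1, 88.6% and 91.3% at T4 and 88.2% and 94.4% at T8. At T9 it was 86.5% and 63.3%, so here the batches differed more than many time points did. LHCB4.1 made up 63.8% and 61.3% of the LHCB4.1 and LHCB4.2 sum at T9, 49.1% and 59.7% at T4 and 82.2% and 70.3% at T8. The T8 plates thus had the most LHCB4.1 relative to T4 and T9 in both batches. PSAD1 held 81.7% and 71.5% of the PSAD pair at T9, 72.6% and 70.3% at T4 and 95.2% and 81.9% at T8. PSBO1 held 74.8% and 79.2% of the PSBO pair at T9 and 62.3% and 72.1% at T4. PSAE1 held 78.1% and 80.3% of the PSAE pair at T9, 78.9% and 83.5% at T4 and 71.7% and 80.1% at T8. PSAH1 held 43.2% and 41.1% of the PSAH pair at T9, 45.2% and 52.2% at T4 and 49.4% and 49.6% at T8. PSBQ1 held 42.6% and 35.5% of the PSBQ pair at T9, 47.0% and 51.1% at T4 and 51.8% and 39.8% at T8. These proportions are descriptions, and no test was made of them.

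**Figure D5:**
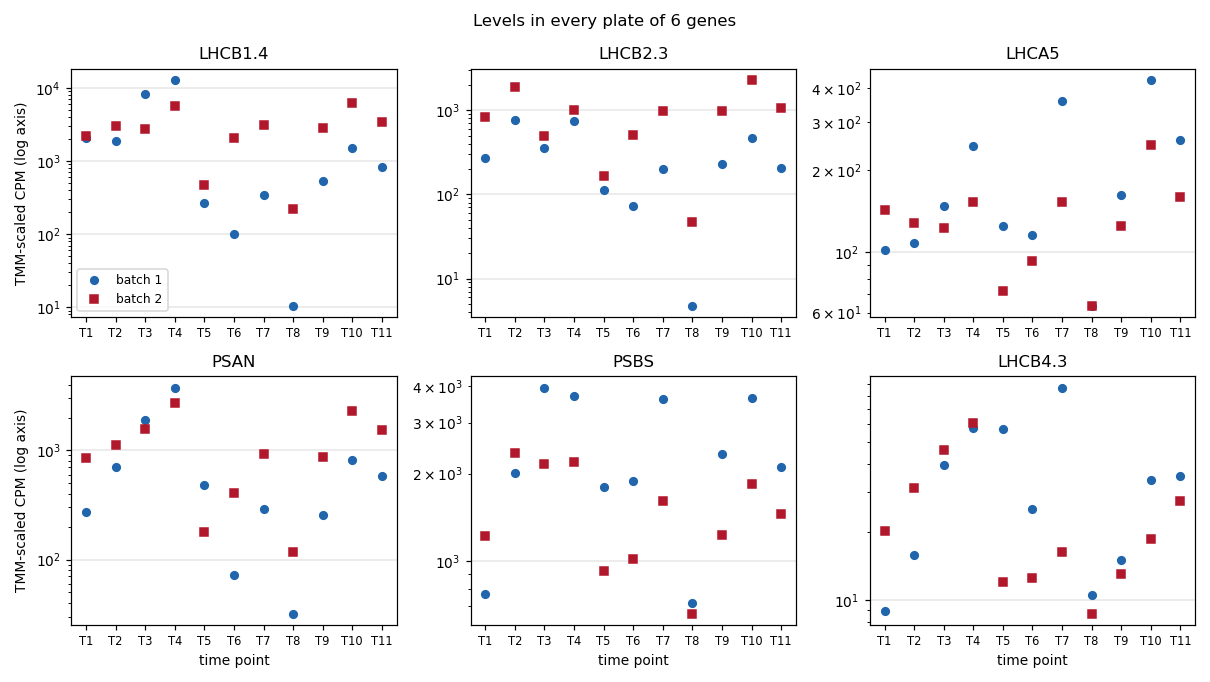
TMM-CPM (log axis) at T1 to T11 (horizontal axis) in the plates of batch 1 (circles) and batch 2 (squares) for LHCB1.4, LHCB2.3, LHCA5, PSAN, PSBS and LHCB4.3. LHCB2.3 reaches 4.71 and 46.4 at T8, whereas LHCA5 and PSBS vary less, and LHCB1.4 and LHCB2.3 differ between batches.

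Genes that work beside the photosystems were read from lists of related genes. Of 11 electron carrier and ATP synthase genes, 6 were higher at T4 than at T9, where 18.7% of all loci were higher, with a list median of 1.66. They included FD1, a ferredoxin (log2 5.30 ± 0.80, adjusted p = 0.000164), the plastocyanins PETE1 (2.13 ± 0.43) and PETE2 (2.92 ± 0.60), and LFNR1, a ferredoxin-NADP reductase (1.66 ± 0.44). FD1 was also higher at T2 than at T1 (3.16, adjusted p = 0.0280), the only gene of this list called there, where 2.75% of loci were called. At T8 9 of 11 were lower than at T11, where 13.4% of loci were lower, with a median of -1.81, among them PETE1 (-2.45 ± 0.44), PETE2 (-2.62 ± 0.60), PETC, the Rieske protein (-1.97 ± 0.48), and ATPD, an ATP synthase subunit (-1.49 ± 0.40). Against T9, without the T11 plates, 7 of 11 were lower with a median of -1.44, where 9.55% of loci were lower.

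Of 11 genes for photosystem assembly and antenna insertion, 3 were higher at T4 than at T9 with a list median of 0.33, a share not far above the 18.7% of all loci. They were PSB27, which binds photosystem II during its assembly (1.501 ± 0.401), CPSRP43, which escorts antenna proteins to the membrane (1.17 ± 0.38), and HCF136, a photosystem II assembly factor (0.94 ± 0.35). At T8 9 of 11 were lower than at T11 (13.4% of loci), with a median of -1.25, among them PSB27 (-2.40 ± 0.41), PPL1, a PsbP-like protein of photosystem II repair (-1.97 ± 0.36), HCF136 (-1.64 ± 0.35) and the insertase ALB3 (-1.18 ± 0.30). Against T9, without the T11 plates, 8 of 11 were lower with a median of -1.30 (9.55% of loci). T8 was also lower than T6 for 3 of 11, where 3.27% of loci were lower.

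Of 13 regulators and thylakoid kinases, 4 were higher at T4 than at T9 and 2 lower, with a median of 0.07. With 18.7% of loci higher and 24.2% lower, these counts are not far from those of all loci. GLK1 (1.76 ± 0.39) and GLK2 (1.86 ± 0.37), transcription factors of photosynthesis genes, and the thylakoid kinases STN8 (2.06 ± 0.32) and STN7 (0.85 ± 0.33) were higher. GUN1, a protein of chloroplast-to-nucleus signalling (-3.33 ± 0.54), and the sigma factor SIG4 (-1.36 ± 0.43) were lower. At T8 3 were lower than at T11, GLK2 (-1.87 ± 0.37), the LHCII phosphatase TAP38 (-1.48 ± 0.39) and STN8 (-1.08 ± 0.31), and the list median was -0.77. That count too is not far from the 13.4% of all loci. Against T9, without the T11 plates, 5 of 13 were lower with a median of -1.07, where 9.55% of loci were lower. The T4 values of the 3 lists are given on the TMM scale alone.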

How the data were processed

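Leaf RNA (RNeasy Plant Mini Kit, TruSeq Stranded mRNA kit, per the labels) gave 43 libraries. The deposited counts are whole reads per locus, for which the submitters' processing notes name HTSeq, SAMtools, Bowtie2 2.1.0.0, TopHat2 2.0.14, bcl2fastq 1.8.4 and the TAIR10 build. No source used here states how strand was treated in counting, and without strand a gene and its antisense partner cannot be told apart. Lines that name no gene (11.7% to 45.3% of records) were left out. The authors' deposited log2 values (18864 loci, normalization not stated) served as an alternative, and 1 of its columns matched no sample and was not used. The 43 columns used have the same highest value, 13.908. A tube of T3 batch 1 was not analysed here.

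Tube counts were summed by plate and tested in edgeR 4.0.16 (R 4.3.3) by the quasi-likelihood test, with TMM scaling, filterByExpr with a smallest count of 10, and 1 model over 22 plates with terms for time point and batch. The common biological coefficient of variation was 0.308, on 10 residual degrees of freedom. P-values were Benjamini-Hochberg adjusted over 20980 loci. Errors of log2 differences are standard errors of the fit. The batch term is the replicate block: plates of the same batch deviated together in all 55 pairs of time points (r of 0.104 to 0.66, median 0.289), so batch pairs the plates. The labels do not say that batches are separate sowings, and p-values measure the spread between these plates. DESeq2 1.42.0 and limma 3.58.1 (for the log2 values) were alternatives. The edgeR test was checked on simulated data in which equal numbers of loci were raised and lowered at T4. That check cannot speak to the scaling of the real T4 plates, whose TMM factors were far from 1. Members were placed by locus ID in the RefSeq annotation of TAIR10.1 (42 of 42).

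The members and the gene lists were chosen with earlier results of these data known. Values in every plate are given for the member of each family with the highest and the lowest log2 difference in T4 against T9, T10 against T9, T11 against T9 and T8 against T11. Any other member could be named in any comparison, and of each list up to 4 genes with the smallest p. The alternatives without the T11 plates and without a tube of T6 were added after seeing the data.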

Additional observations from a re-analysis of the deposited data

Results flagged for a closer look

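Among the 4 tubes of a time point, a tube far from the other 3 was looked for in the share of gene counts held by all members and by each family, over 50 groups, of which chance flags about 1 in 20. Tube 2 of the T6 plate of batch 2 stood apart in 2 of them. LHCB genes held 10.52% of its gene counts, against 3.03% to 4.18% in the other 3 tubes, and PSB genes held 3.04%, against 1.55% to 1.69%. The other tube came from the same plate, so this spread lies within 1 replicate. Without this tube, the number of members lower at T8 than at T6 was 1 in place of 9, and the number higher at T7 than at T6 was 10 in place of 1. Over all loci, 518 of 21016 were lower in place of 686 of 20980, and 1347 were higher in place of 936.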

How the results depend on the processing

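With n = 2 plates a time point, calls of members changed with many alternatives. Levels were lowest for LHCB2.3 at T8 of batch 1 (4.71 TMM-CPM) and for LHCB4.3 (8.69 to 86.8 TMM-CPM over all plates). The low T8 level against T11 kept its direction under every alternative run and its count within 1.5 times of 41, except with the fit limited to the plates compared (0) and with 1 plate left out (11 to 40); the high T4 level on the TMM scale did not keep its direction. With library size scaling the members called numbered 9 for T4 above T1, 0 for T3 above T2, 5 for T4 above T9, 0 for T10 above T9, 0 for T7 above T6, 0 for T4 above T10 and 23 for T8 below T6, and the median turned to -0.245 for T3 against T2 and -0.098 for T4 against T10. In the authors' deposited log2 values they numbered 0 for each of T4 above T1, T3 above T2, T4 above T9, T10 above T9, T7 above T6 and T4 above T10, 33 for T8 below T6 and 5 for the recovery interaction, and the median turned to -0.33 for T4 against T1, -0.585 for T3 against T2, -0.45 for T4 against T9, -0.016 for T7 against T6 and -0.493 for T4 against T10; the median of T11 against T9, where no member was called, was -0.161. With upper-quartile scaling the counts were 0 for T3 above T2, 0 for T10 above T9, 0 for T7 above T6, 2 for T4 above T10 and 1 for the recovery interaction. DESeq2 called 6 members for T2 against T1, 10 for T3 above T2, 9 for T10 above T9, 6 for T7 above T6, 18 for T4 above T10, 33 for T8 below T6 and 31 for the recovery interaction. Without a filter on low counts there was 1 for T3 above T2, 0 for T10 above T9 and 0 for T7 above T6.

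With no replicate block, that is without the batch term that pairs the plates, the counts were 0 for T10 above T9, 0 for T7 above T6 and 0 for T8 below T6; the other counts stayed within 1.5 times, such as 30 for T4 above T9 and 36 for T8 below T11. With 1 tube per plate they were 0 for T3 above T2, T10 above T9, T7 above T6, T4 above T10 and T8 below T6. With only the plates compared they were 19 for T2 against T1, 7 for T3 above T2, 1 for T6 against T9, 4 for T10 above T9, 0 for T7 above T6, 18 for T7 against T10, 2 for T4 above T10, 5 for T8 below T6 and 0 for T8 below T11. Such fits called 1404 of 19309 loci higher for T2 against T1 and 758 of 18947 lower for T7 against T10. Leaving out 1 plate of a comparison gave 26 to 39 for T4 above T1, 0 to 1 for T3 above T2, 17 to 36 for T4 above T9, 0 to 0 for T10 above T9, 0 to 1 for T7 above T6, 0 to 2 for T4 above T10, 0 to 20 for T8 below T6, 11 to 40 for T8 below T11 and 0 to 17 for the recovery interaction. Without tube 2 of T6 batch 2, chosen after seeing the data, 10 members were higher at T7 than T6 and 1 was lower at T8 than T6. Of 21016 loci, 1347 were higher at T7 than T6 and 518 were lower at T8 than T6. Of all records in place of gene counts, the mean share of the members was 14.75% at T4, 6.37% at T5, 11.15% at T9, 12.85% at T10 and 9.13% at T11. With non-member loci called higher at T4 than at T9 taken out of the denominator and all members kept in it, it was 15.35% at T1, 27.9% at T2, 41.4% at T3, 51.99% at T4, 11.16% at T5, 21.9% at T7, 18.4% at T9, 30.9% at T10 and 22.4% at T11; this choice raises T4 by construction, so nothing is read from its rise. Apart from the scalings, which by construction set the level of T3 and T4, the cause of these changes was not tested.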
